A study of Mus musculus with 191 samples.

Results

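Eosinophils, basophils and mast cells are granulocytes of type 2 immunity. Here 10 genes that mark them were followed through 5 tissues of control mice and mice with treatments or alleles directed at neutrophils. How far neutrophils were depleted was not tested. The genes are Mcpt8, Siglecf, Prg2, Epx, Ear1, Ear2, Ear6, Cpa3, Il5ra and Alox15. They were chosen by name, from knowledge of the cell types, out of 21205 genes with a value in at least 1 tissue. All 10 had a value in bone marrow, 6 in lung, 5 in skin, 4 in gut and 3 in liver, and the other gene and tissue pairs were not analysed here.

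The study measured RNA around the day, timed in zeitgeber hours (ZT, hours after lights on). Libraries of 50 nt single reads came from total RNA of whole tissue, 191 in all. Bone marrow, gut, liver and lung came from wild-type C57BL/6 mice given 3 µg/g of control IgG or of anti-Ly6G (clone 1A8), an antibody against a neutrophil surface protein, for 2 days. Each of these tissues had 18 libraries per antibody, 3 mice at each of ZT 1, 5, 9, 13, 17 and 21. The labels state that part of the mice lived in cabinets with light inverted by 12 h, without saying which.

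Ear skin came from perfused mice at 16 ZT, with 1 mouse per ZT and genotype. The 16 control mice were wild-type C57BL/6 mice given diphtheria toxin. The 16 Mrp8CRE; iDTR mice received the same toxin, 10 µg/kg for 2 days. In these mice the Mrp8 promoter, active in cells of the neutrophil lineage, drives Cre, and Cre allows expression of a receptor that makes cells sensitive to the toxin. The 15 Mrp8CRE; Bmal1-flox mice carry the same Cre with a floxed clock gene, received no treatment, and lack ZT 16. The iDTR and Bmal1-flox mice thus share the Cre, and the iDTR and control mice share the toxin.

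Eosinophils develop in bone marrow under interleukin 5, whose receptor has the specific subunit Il5ra and a β subunit shared with other cytokines. They fill their granules with cationic proteins: major basic protein (Prg2), eosinophil peroxidase (Epx) and the eosinophil-associated ribonucleases (Ear genes). Siglecf is a surface lectin of mouse eosinophils and of alveolar macrophages, and Alox15 is a lipid-oxidising enzyme of eosinophils and of some macrophages. Basophils of mice carry the granule protease Mcpt8. Cpa3, a carboxypeptidase, fills mast cell granules and is also made by basophils and their precursors.

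The 3 Ear genes lie in a family of near-copies on chromosome 14, so how far 50 nt reads can separate them sets how their values can be read. The first 150 coding bases of each, from the GRCm38 genome with the GENCODE annotation, are shown for this reason. Capitals in Ear1 and Ear6 mark bases that differ from Ear2, and capitals in Ear2 mark every position at which any of the 3 differ.
Ear1 (chr14:43819260-43819409, minus strand): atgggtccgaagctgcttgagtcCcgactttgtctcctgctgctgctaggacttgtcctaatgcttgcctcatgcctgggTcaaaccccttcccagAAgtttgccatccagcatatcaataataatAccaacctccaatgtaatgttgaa
Ear2 (chr14:44102887-44103036, plus strand): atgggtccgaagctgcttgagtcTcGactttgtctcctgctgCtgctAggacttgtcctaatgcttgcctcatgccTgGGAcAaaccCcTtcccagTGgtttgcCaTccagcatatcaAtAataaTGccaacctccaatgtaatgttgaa
Ear6 (chr14:51853998-51854147, plus strand): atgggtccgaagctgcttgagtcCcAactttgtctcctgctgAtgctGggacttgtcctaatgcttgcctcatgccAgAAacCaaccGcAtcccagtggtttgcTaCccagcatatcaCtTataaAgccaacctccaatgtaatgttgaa
In this stretch Ear1 differed from Ear2 at 5 positions and Ear6 differed from Ear2 at 15. Over the whole coding sequence Ear1 and Ear2 were 95.7% identical, with 20 differences over 465 bases. Their longest identical run was 96 bases, which is longer than a read. Ear6 was 87.3% identical to Ear1 and 88.2% identical to Ear2. Of all 50 nt sequences in the transcripts of Ear1, 42.6% occurred in no other gene, against 58.5% for Ear2 and 99.0% for Ear6. For the other 7 genes this share was between 99.1% and 100%. The division of reads between Ear1 and Ear2, and their near-copies such as Ear10, is therefore uncertain, while Ear6 and the other 7 genes were read from almost unshared sequence.

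The near-identity of Ear1 and Ear2 extends upstream of the genes. Aligned stretches of 248 bases (RefSeq, GRCm38.p6), which end at the start of Ear2 and 2 bases short of the start of Ear1, were 99.2% identical. The 2 differing positions are in capitals.
Ear1 (chr14:43819642-43819889, minus strand): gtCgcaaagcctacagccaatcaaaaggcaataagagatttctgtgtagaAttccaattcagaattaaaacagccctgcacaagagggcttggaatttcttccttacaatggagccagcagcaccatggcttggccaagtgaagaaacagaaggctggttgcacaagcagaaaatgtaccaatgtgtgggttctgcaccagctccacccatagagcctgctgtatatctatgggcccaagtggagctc
Ear2 (chr14:44102406-44102653, plus strand): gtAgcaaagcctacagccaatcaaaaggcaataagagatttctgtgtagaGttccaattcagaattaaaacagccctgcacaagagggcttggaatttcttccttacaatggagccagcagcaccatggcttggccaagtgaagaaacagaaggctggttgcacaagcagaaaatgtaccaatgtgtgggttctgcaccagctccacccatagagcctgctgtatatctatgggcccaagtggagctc
RefSeq promoters were matched for 8 of the 10 genes. The motif GATAA, the core sequence bound by GATA factors such as those of the eosinophil, basophil and mast cell lineages, was searched on both strands of the 250 bases before each start, where it reads TTATC on the opposite strand. It was present in 22.6% of 32851 promoters and in 2 of the 8 promoters here, those of Cpa3 and Il5ra. In the following 120 bases before the start, the motif is in capitals, 45 bases before the start of Cpa3 and 73 bases before that of Il5ra.
Cpa3 (chr3:20242182-20242301, minus strand): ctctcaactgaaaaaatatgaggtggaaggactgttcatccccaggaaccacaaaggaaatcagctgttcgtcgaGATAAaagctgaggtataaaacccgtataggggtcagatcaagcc
Il5ra (chr6:106749038-106749157, minus strand): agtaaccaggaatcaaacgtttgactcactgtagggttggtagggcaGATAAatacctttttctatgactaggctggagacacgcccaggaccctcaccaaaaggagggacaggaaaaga
A match is a description of these letters only.

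Values are the deposited normalised read counts, on a scale close to RPM (reads scaled to a common total), and recovered depths lay between 7.68 M and 30.9 M reads (M, mega) per library. Bone marrow, liver, lung and skin each carried their defining transcripts, such as Mpo, Alb, Sftpc and Krt14, and gut carried Vil1. Several labels or libraries stood apart. In lung, Nr1d1, a clock gene, peaked at ZT 1.92 (IgG) and 23.5 (anti-Ly6G) by the labels, against 8.38 and 7.63 in gut and 6.20 and 5.31 in liver, so lung ZT and antibody labels are in doubt and lung values are given as labelled. In skin, Gt(ROSA)26Sor, a transcript of the Rosa26 locus into which the iDTR transgene is inserted, was 0.870 in the libraries labelled control and 0.655 in those labelled iDTR, against 26.2 in those labelled Bmal1-flox. The genotype of the skin libraries labelled control is therefore in doubt, and the group names in skin stand for the labels. In gut, 2 anti-Ly6G libraries held transcripts of other organs, such as Svs5, up to a value of 12500. IgG gut libraries also held such transcripts at lower values, with Svs5 up to 12 (median 0.258). Alb, a liver transcript, was at 80.4 ± 305 (SD, n = 15) in Bmal1-flox skin, a spread far above the mean.

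In bone marrow of mice given anti-Ly6G, 7 of the 10 genes were higher than in IgG mice and none was lower. The 7 were Mcpt8, Siglecf, Prg2, Ear6, Cpa3, Il5ra and Alox15, with log2 differences of 0.19 to 0.35 (limma, adjusted p under 0.05 over all genes). Over all 14289 genes tested, 9.95% were called higher and 7.16% lower. The median log2 difference of the 10 genes was 0.29, and that of all genes was −0.0045. The basophil protease Mcpt8 had the lowest adjusted p of the 10. In bulk tissue, a change in the number of cells of a type and a change in RNA per cell cannot be told apart.

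Transcript levels per kilobase spanned a wide range in IgG marrow. Per kilobase of the longest transcript, Prg2 stood first at 1300 ± 215 (SD, n = 18 mice, as for all bone marrow values). Ear2 and Ear1 followed at 271 ± 50.6 and 261 ± 49.2 and overlapped each other. Ear6 was at 161 ± 36.3, Epx at 106 ± 29.9 and Mcpt8 at 59.2 ± 9.38. Alox15 lay at 31.8 ± 6.13, Cpa3 at 12.8 ± 1.49, Siglecf at 5.77 ± 0.697 and the receptor Il5ra lowest at 2.32 ± 0.455. In this order the ranges over mice overlapped between Ear2 and Ear1, Ear1 and Ear6, Ear6 and Epx, and Epx and Mcpt8, and those of Mcpt8 and Alox15 met. Prg2 lay above all others, and Alox15, Cpa3, Siglecf and Il5ra did not overlap one another.

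For the basophil gene Mcpt8, normalised counts ranged in IgG mice from 43.8 to 74.3 with a median of 53.4. In anti-Ly6G mice they ranged from 61.2 to 88.3 with a median of 69.3. The lowest anti-Ly6G library thus lay above the IgG median, although the groups overlapped. The means were 56.0 ± 8.87 and 70.8 ± 6.03, a log2 difference of 0.35 (SE 0.0456, limma adjusted p = 2.29e-06). At each of the 6 ZT the anti-Ly6G mean was the higher one, and at 5 of them the 3 anti-Ly6G mice lay wholly above the 3 IgG mice. The difference was smallest at ZT 9 (0.22) and largest at ZT 17 (0.51). Prss34, a second protease gene of basophils, was also higher, at 109 ± 14.9 in IgG and 127 ± 10.2 in anti-Ly6G mice.

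Cpa3, the carboxypeptidase of mast cells and basophil precursors, ranged from 13.8 to 22.2 (median 18.7) in IgG mice and from 17.0 to 26.1 (median 21.9) in anti-Ly6G mice. Most of both ranges overlapped. Its log2 difference was 0.19 (SE 0.0550, adjusted p = 0.0122). The difference was largest at ZT 5, where the means were 15.9 and 24.1 (log2 0.57). Without the 6 mice of ZT 5 it was 0.12 and no longer passed (adjusted p = 0.101). At ZT 9 the means were 20.4 and 20.2.

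**Figure D1:**
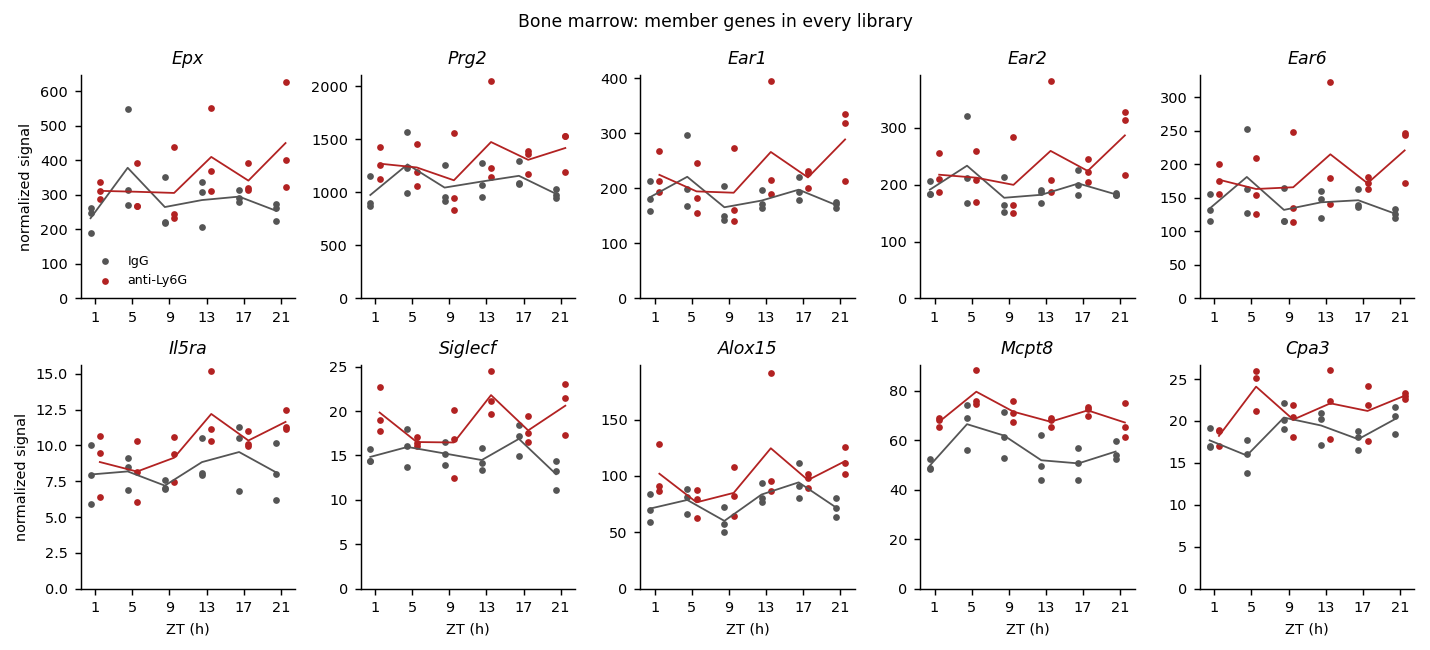
Normalised counts (y axis) of the 10 genes in each bone marrow library by ZT in hours (x axis), with lines through the means of 3 mice, for IgG and anti-Ly6G. Mcpt8 means are higher under anti-Ly6G at all 6 ZT, while the means of Epx and the Ear genes lie farthest apart at ZT 21.

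The granule protein genes of eosinophils moved as a block between libraries but less evenly between the groups. Prg2, major basic protein, ranged from 870 to 1567 (median 1052) in IgG mice and from 831 to 2049 (median 1245) in anti-Ly6G mice. The upper end of the range differed and the lower end did not. Its log2 difference was 0.25 (SE 0.0828, adjusted p = 0.0336). Ear6 ranged from 115 to 252 (median 135) in IgG mice and from 114 to 324 (median 174) in anti-Ly6G mice. Its log2 difference was 0.34 (SE 0.106, adjusted p = 0.0215). The call of Prg2 was lost without any 1 of 9 libraries (adjusted p of 0.0510 to 0.0588), and that of Ear6 was not lost without any single library.

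Epx, Ear1 and Ear2 did not pass the threshold. Epx, eosinophil peroxidase, ranged from 189 to 549 (median 272) under IgG and from 233 to 627 (median 321) under anti-Ly6G, with a log2 difference of 0.31 (95% interval 0.08 to 0.54, adjusted p = 0.0505). Ear1 had group means of 186 ± 35.1 and 231 ± 66.2 (log2 0.28, adjusted p = 0.0504). Ear2 had means of 195 ± 36.4 and 233 ± 61.5 (log2 0.23, adjusted p = 0.0823). Because the division of reads between these 2 genes is uncertain, their values were also summed. The sum was 381 ± 70.9 under IgG and 464 ± 127 under anti-Ly6G (log2 0.26, adjusted p = 0.0631). All 10 genes, these 3 included, had an unadjusted p below 0.05. The share of all genes below that value is not given here. After adjustment 9.95% of all genes were higher and 7.16% lower. With only genes of a mean of at least 4 tested, Epx and Ear1 passed (adjusted p = 0.0443 and 0.0442). Leaving out 1 library brought Epx past the threshold for 10 of the 36 libraries, Ear1 for 12 and Ear2 for 2.

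The eosinophil receptors and enzyme passed the threshold. Siglecf ranged from 11.1 to 18.5 (median 14.7) in IgG mice and from 12.5 to 24.6 (median 18.4) in anti-Ly6G mice, a log2 difference of 0.30 (SE 0.0645, adjusted p = 0.00122). It was higher at 6 of 6 ZT, without overlap at 3. Il5ra, the specific subunit of the interleukin 5 receptor, was at 8.31 ± 1.63 and 10.1 ± 2.15 (log2 0.24, SE 0.0811, adjusted p = 0.0343). Alox15, the lipid-oxidising enzyme, ranged from 50.0 to 112 (median 78.2) in IgG mice and from 62.5 to 192 (median 93.6) in anti-Ly6G mice (log2 0.35, SE 0.0910, adjusted p = 0.00614). For each of these 3 genes the groups overlapped over much of their range. The Il5ra call was lost without any 1 of 11 libraries (adjusted p of 0.0513 to 0.0622).

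Beside the test over all ZT, the differences at single ZT, from 3 mice per antibody, are given as a description, since the granule genes are correlated and are not separate evidence. Siglecf, Prg2, Epx, Ear1, Ear2, Ear6, Il5ra and Alox15 each had their largest difference at ZT 21, for example 0.77 for Epx (means 254 and 450) and 0.78 for Ear6. Each of the 8 had its smallest difference at ZT 5, where it was below 0 for all but Siglecf. At ZT 5, Epx stood at 315, 549 and 271 in the IgG mice and at 392, 268 and 267 in the anti-Ly6G mice. At ZT 21 it stood at 273, 263 and 225 in the IgG mice and at 627, 323 and 400 in the anti-Ly6G mice, without overlap. In the test over all ZT, Epx passed the threshold without the high IgG library at ZT 5, replicate 5 (adjusted p = 0.00931). Leaving out 1 library did so for 10 libraries in all, and this does not test the difference between ZT. Cpa3 and Mcpt8 had their largest differences at ZT 5 and ZT 17.

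A test of whether the antibody difference itself changed between ZT 1, 5, 9 and ZT 13, 17, 21 called no gene. For Epx the log2 differences were 0.12 and 0.50 (unadjusted p of the change 0.0938). For Siglecf they were 0.18 and 0.42 (0.0548). The adjusted p was 0.9998 for each of the 10 genes. In the test of the antibody difference itself, the number of the 10 genes called was 4 without ZT 13 and 3 without ZT 21. It was 1 (Mcpt8) with the 18 mice of ZT 1, 5 and 9 alone and 7 with the 18 mice of ZT 13, 17 and 21 alone. The share of all genes called in these smaller sets of mice is not given here, so these counts lack a background. Mcpt8 passed under each of 51 alternative settings, and leaving out any single library gave between 5 and 10 of the 10 genes.

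**Figure D2:**
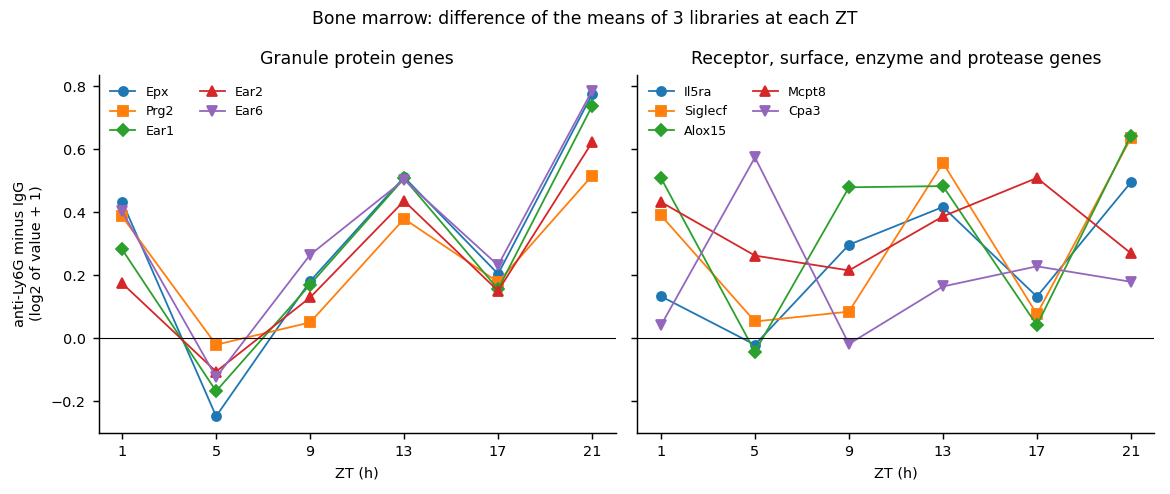
Log2 difference of anti-Ly6G minus IgG in bone marrow (y axis) at each ZT in hours (x axis), from means of 3 mice each, with the granule protein genes in the left panel and Il5ra, Siglecf, Alox15, Mcpt8 and Cpa3 in the right. The eosinophil genes lie lowest at ZT 5 and highest at ZT 21, while Mcpt8 stays between 0.22 and 0.51.

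Some other genes of these lineages were also higher. Of a list of 40 growth factors, receptors, transcription factors and granule genes, which includes Il5ra, 27 were tested. Of these, 16 were higher, Il5ra among them, and none was lower, with a median log2 difference of 0.17. Over all genes tested, 9.95% were called higher. Csf2rb, the β subunit shared by the receptors for interleukin 5, interleukin 3 and GM-CSF, was at 118 ± 11.5 under IgG and 156 ± 25.1 under anti-Ly6G. Hdc, which makes histamine, was at 120 and 156. Cebpe, a transcription factor of late granulocyte maturation, was at 84.8 and 106, and Alox5ap, which serves leukotriene synthesis, at 255 and 323. Several of these 16 genes, Cebpe, Cebpa, Spi1 and Csf2rb among them, are also expressed in the neutrophil lineage. The eotaxin receptor Ccr3, a marker of mature eosinophils, was at 51.1 ± 10.5 under IgG and 46.7 ± 8.46 under anti-Ly6G (adjusted p = 0.111). Prg3, a homologue of Prg2, was at 54.2 ± 9.64 and 61.2 ± 13.9 (adjusted p = 0.229).

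Markers of other marrow cells moved in the same comparison. All 4 neutrophil progenitor genes (Mpo, Elane, Prtn3 and Ctsg) were higher, and their summed value ranged from 2267 to 3354 under IgG and from 3243 to 4839 under anti-Ly6G. All 5 B cell markers and 3 of 4 erythroid markers were lower. Of 8 neutrophil markers, 2 (Ltf and Ngp) were higher and Csf3r was lower. Ly6g, the gene of the antibody's target, was at 104 ± 10.6 and 118 ± 18.6. The part of these cell types in the result for the 10 genes was not tested.

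Across the 36 marrow libraries the genes fell into blocks. After the group means were removed, Ear6 correlated with Ear1 (Pearson r = 0.98), with Prg2 (0.97) and with Epx (0.89). Mcpt8 did not follow them (−0.18 with Ear6 and −0.34 with Epx), and Cpa3 correlated with Ear6 at 0.01 and with Mcpt8 at 0.28. Il5ra and Alox15 correlated with each other at 0.77. Outside the 10 genes and over all libraries, the pattern most like that of Epx was that of Prg3 (0.83), followed by Stx3, Perp, Esyt1 and Inpp5j. The pattern most like that of Mcpt8 was that of Prss34 (0.91), followed by Tmed3, Ica1, Bscl2 and the neutrophil progenitor gene Mpo (0.72). For Cpa3 it was mt-Nd6 (0.74), then Ccl9, Arhgef10l, mt-Nd5 and Tsen34. These correlations are over libraries that share tissue, groups and normalisation and are given as a description.

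In ear skin, the ribonuclease gene Ear6 was at 0.212 ± 0.164 (SD, n = 16) in Mrp8CRE; iDTR mice against 1.82 ± 0.470 (n = 16) in control mice, the largest difference on the log2 scale among the gene and tissue pairs tested. Ear2 and Il5ra were also lower in the iDTR mice, and the mast cell gene Cpa3 did not pass the test. Of the 4 genes tested, 3 were thus called lower, where 32.4% of 15946 genes were lower and 30.6% higher. A call in this contrast was common, which bears on how the count is read. The filter, a mean of at least 1 over all skin libraries, also shaped it. Ear6 passed the filter through the control and Bmal1-flox libraries (means 1.82 and 1.99), as its iDTR mean lay below 1. Alox15 lay below the filter and was higher in iDTR skin (log2 0.58, adjusted p = 1.46e-05 in the limma fit without a filter). Prg2, Epx, Siglecf, Ear1 and Mcpt8 were not analysed here in skin.

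Ear6 ranged from 0.886 to 2.74 (median 1.83) in the 16 control libraries and from 0.0294 to 0.613 (median 0.156) in the 16 iDTR libraries. The groups did not overlap, and at 16 of 16 ZT the iDTR mouse was the lower one. These values rest on few reads, 11.04 to 37 per control library and 0 to 9 per iDTR library, 3 of which had none. Summed over libraries, 404 reads in control and 44 in iDTR gave a ratio of 0.103 once set against total depth. The log2 difference was −1.21 on the log2(value + 1) scale, which understates the change of low genes (SE 0.120, adjusted p = 2.85e-12). In the Bmal1-flox mice, which carry the same Cre, Ear6 ranged from 0.601 to 4.54 (median 1.87), and its difference from control was 0.02 (95% interval −0.23 to 0.26).

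Ear2 ranged from 2.41 to 5.45 (median 3.45) in control skin and from 0.833 to 4.48 (median 2.16) in iDTR skin, with overlap. It was lower in the iDTR mouse at 13 of 16 ZT, with a log2 difference of −0.50 (SE 0.115, adjusted p = 1.84e-04). In Bmal1-flox skin it was at 3.25 ± 0.845 (log2 −0.12, 95% interval −0.35 to 0.12). Set directly against Bmal1-flox skin, iDTR skin was lower by 1.23 on the log2 scale for Ear6 (adjusted p = 3.68e-12) and by 0.38 for Ear2 (adjusted p = 0.00409). In that comparison 31.0% of all genes were lower, and 2 of the 4 genes here that passed the filter. Alox15, below the filter, was higher (log2 0.46, adjusted p = 4.62e-04 in the limma fit without a filter). The iDTR group stands in both comparisons, which therefore are not independent.

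Il5ra was lower than in control in both other genotypes, in 2 comparisons that share the 16 control libraries and so are not independent. It ranged from 0.607 to 2.43 (median 1.40) in control, from 0.479 to 1.999 (median 1.05) in iDTR and from 0.590 to 1.78 (median 0.930) in Bmal1-flox skin. All 3 ranges overlapped widely. The log2 difference was −0.22 for iDTR (adjusted p = 0.0383) and −0.32 for Bmal1-flox (adjusted p = 0.0417). Among all genes 3.21% were lower in Bmal1-flox skin, and of the 4 genes here only Il5ra was. Both calls were fragile: after quantile normalisation neither passed (adjusted p = 0.421 and 0.129). Leaving out 1 library ended the iDTR call for 13 of the 47 libraries and the Bmal1-flox call for 18.

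Cpa3 was the most abundant of these genes in skin. It ranged from 31.7 to 64.9 (median 42.0) in control, from 16.0 to 85.5 (median 37.2) in iDTR and from 32.3 to 57.7 (median 42.6) in Bmal1-flox skin. The iDTR libraries reached both lower and higher than the control ones. The log2 differences were −0.22 (95% interval −0.50 to 0.06, adjusted p = 0.170) and 0.00 (−0.28 to 0.29). The 2 highest iDTR libraries, at ZT 16 (85.5) and ZT 13 (78.9), were also the highest in the mast cell proteases Cma1 (76.0 and 63.7) and Tpsb2 (80.2 and 73.2). Without the ZT 16 library, replicate 9, the iDTR difference passed (adjusted p = 0.0417).

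Alox15 stayed below the filter, a mean value of 1 over all skin libraries, and was not tested with the others. It was at 0.514 ± 0.230 in control, 1.29 ± 0.509 in iDTR and 0.689 ± 0.517 in Bmal1-flox skin, and it was higher in the iDTR mouse at 14 of 16 ZT. In the fit without a filter its iDTR difference was 0.58 (adjusted p = 1.46e-05), against 0.12 (adjusted p = 0.652) for Bmal1-flox.

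**Figure D3:**
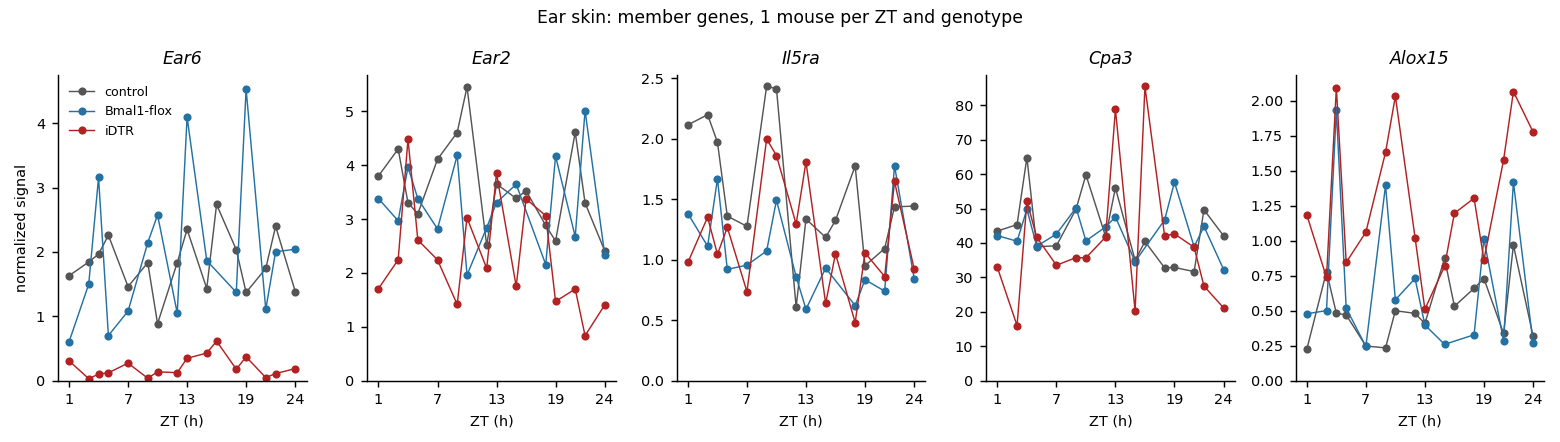
Normalised counts (y axis) of Ear2, Ear6, Cpa3, Il5ra and Alox15 in each ear skin library by ZT in hours (x axis), 1 mouse per point, for control, Mrp8CRE; iDTR and Mrp8CRE; Bmal1-flox. Ear6 lies between 0.0294 and 0.613 in all iDTR libraries and at 0.601 or above in the other genotypes, and Cpa3 scatters from 16.0 to 85.5 in iDTR.

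The genes around them showed what else moved in iDTR skin. Rnase2b, a ribonuclease of the same family, was at 8.41 ± 2.56 in control, 1.06 ± 0.664 in iDTR and 8.81 ± 3.49 in Bmal1-flox skin (iDTR log2 −2.21, adjusted p = 1.81e-17). Its iDTR and control ranges did not overlap. Over all 47 libraries it was also the gene whose pattern was most like that of Ear6 (r = 0.91), followed by Dgat2l6, Sdr42e1, Pea15a and Sec14l4. These libraries span the 3 genotypes, so the group differences enter such correlations. In IgG marrow Rnase2b was at only 0.429 ± 0.245, where Ear6 was at 144 ± 32.4. The cell source of Ear6 in skin was not tested. The genes most like Ear2 were H2-Ab1 (0.78), Otulinl, H2-Aa, Cd74 and Zfp521, of which H2-Ab1, H2-Aa and Cd74 serve antigen presentation. The correlation of Ear2 with Ear6 was 0.51 over all libraries and 0.11 within groups. The genes most like Cpa3 were Mrgprb1 (0.88), Fcgr3, the mast cell protease Cma1 (0.86), Ms4a2, a subunit of the IgE receptor, and Tpsb2, a mast cell tryptase.

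Of the 40 growth, recruitment and granule genes, 27 were tested in iDTR skin, 8 were higher and 9 lower, with a median log2 difference of 0.07. The 9 include Il5ra. Over all genes tested, 30.6% were higher and 32.4% lower. Tslp, an epithelial cytokine, was at 2.67 ± 0.613 in control and 13.5 ± 4.17 in iDTR skin. Il4ra was at 31.0 ± 3.86 and 85.0 ± 11.1, and Csf2rb at 20.6 ± 2.20 and 41.2 ± 8.65. Hdc was at 8.68 ± 2.61 and 25.2 ± 9.48. Among genes that fell were Id2 (68.4 and 46.9) and the eosinophil chemokine Ccl24 (2.50 and 1.80). Of 8 mast cell markers, 2 were higher (Hdc and Tpsab1) and 2 lower (Mrgprb2, at 9.97 and 6.72, and Kit), and Cpa3, Cma1, Mcpt4 and Tpsb2 did not pass. Neutrophil markers were higher in iDTR skin, 4 of the 4 tested, with S100a8 at 5.01 ± 3.76 in control and 15.5 ± 13.3 in iDTR mice. Their part in the results for Ear6, Ear2 and Il5ra was not tested.

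In liver only Ear2 had a mean value of at least 1, and it was higher under anti-Ly6G. It ranged from 0.308 to 1.85 (median 1.18) in the 18 IgG libraries and from 1.25 to 3.23 (median 1.84) in the 18 anti-Ly6G libraries. The median anti-Ly6G library thus lay near the highest IgG library. These values stand for 4 to 19.82 reads and 14 to 47 reads per library. The log2 difference was 0.44 (SE 0.0899, 95% interval 0.26 to 0.63, limma adjusted p = 0.00966), in a comparison where 0.776% of 12504 genes were higher. The anti-Ly6G mean was the higher one at 6 of 6 ZT, from 0.12 at ZT 9 to 0.82 at ZT 13, without overlap at 3.

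The liver call passed in 46 of 48 alternative fits, including every fit that left out 1 library. The 2 that lost it left out all mice of 1 ZT. Without ZT 5 the adjusted p lay just above 0.05, and without ZT 13 it was 0.0554. No tested marker from the lists for alveolar macrophages, resident peritoneal macrophages and nonclassical monocytes passed. No list for Kupffer cells, the macrophages of liver, was used. Above 0 were 4 of 5 alveolar macrophage markers, 2 of 3 resident peritoneal macrophage markers and 1 of 2 nonclassical monocyte markers. Those with the largest log2 differences were Marco, at 4.18 ± 2.66 and 6.67 ± 5.12, and Treml4, at 2.57 ± 0.924 and 3.33 ± 0.789. The genes whose pattern was most like that of Ear2 in liver were Ccl6 (r = 0.71), Parvg, Fcgr4, C3 and Pla2g7. Eosinophil granule genes were not analysed here in liver, and the part of any cell type in this difference was not tested. Csf2ra, a receptor subunit for GM-CSF, was the 1 gene of 20 tested from the list of 40 to pass, at 2.72 and 3.57 (adjusted p = 0.0447). Il5ra (0.450 ± 0.258 and 0.492 ± 0.222) and Alox15 (0.273 ± 0.304 and 0.328 ± 0.252) lay below the filter.

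In lung none of the 6 genes differed between the antibodies, in a comparison where 0% of 15641 genes were called. Ear2 was the most abundant, at 46.6 ± 7.77 under IgG and 50.8 ± 7.24 under anti-Ly6G (log2 0.13, 95% interval −0.03 to 0.28, adjusted p = 0.626). Ear1 was at 13.5 ± 2.34 and 14.9 ± 3.07 (adjusted p = 0.672), and Siglecf at 7.95 ± 1.98 and 8.91 ± 1.64 (adjusted p = 0.585). Cpa3 was at 1.37 ± 0.550 and 1.46 ± 0.711 (adjusted p = 0.952). Il5ra was at 1.23 ± 0.422 and 1.56 ± 0.565, with an unadjusted p of 0.0534 and an adjusted p of 0.542. None of the 6 had an unadjusted p below 0.05.

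Over the 36 lung libraries the gene most like Ear2 was Ctss, a lysosomal protease (r = 0.88), followed by Alox5, Il18, Pilra and Mrc1. The genes most like Siglecf were Cd44 (0.78), Slc15a3, Ctss (0.75), Ptk2b and Tmem154. Chil3 and Marco, 2 alveolar macrophage markers, were at 288 ± 68.5 and 9.36 ± 2.67 under IgG. Per kilobase, Ear2 lay above Ear1 in IgG lung without overlap, at 64.8 ± 10.8 against 18.9 ± 3.28, while in marrow the 2 genes overlapped. The division of reads between these 2 genes and their near-copies is uncertain, so this describes the deposited values only.

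Alox15 in lung was set by single libraries. It ranged from 0.324 to 25.0 (median 1.88) under IgG and from 0.731 to 22.3 (median 1.66) under anti-Ly6G. The 5 highest libraries, at 25.0, 22.3, 16.0, 7.43 and 5.59, came from both groups. Prg4, a lubricant protein of serous and joint surfaces, stood at 32.5, 30.0, 20.8, 11.7 and 9.13 in the same libraries, and over all 36 libraries it was the gene most like Alox15 (r = 0.96). The resident peritoneal macrophage marker Gata6, which lung tissue also expresses, was between 44.4 and 59.0 in those 5.

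In gut, of the genes tested 0.0132% were called, 2 of 15158, and none of the 3 genes here was among them. Siglecf was at 1.16 ± 0.371 under IgG and 1.00 ± 0.359 under anti-Ly6G (log2 −0.11, 95% interval −0.28 to 0.06). Il5ra was at 1.25 ± 0.223 and 1.14 ± 0.199 (log2 −0.07, −0.18 to 0.03). Alox15 was at 1.27 ± 0.548 and 1.56 ± 0.685 (log2 0.17, −0.07 to 0.40). The adjusted p lay between 0.561 and 0.587, and no unadjusted p was below 0.05. Ear2, at 0.375 ± 0.143 and 0.412 ± 0.242, lay below the filter. The gene most like Siglecf in gut was Trpm5 (r = 0.78), a channel of tuft cells. Each gut value stands for few reads, a median of 13 to 25 per library for the 3 tested genes.

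**Figure D4:**
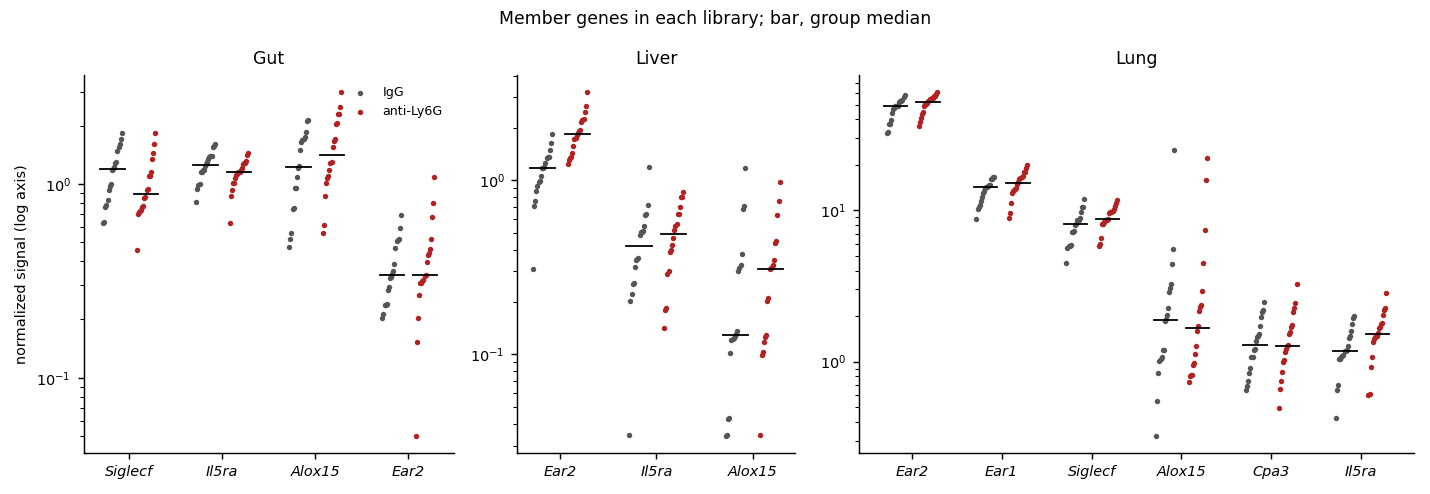
Normalised counts on a log axis (y axis) by gene (x axis) and antibody (colour) in gut, liver and lung, 1 point per library, sorted by value, with a bar at the group median. Liver Ear2 is shifted upwards under anti-Ly6G, from a median of 1.18 to 1.84, while lung Alox15 spreads from 0.324 to 25.0.

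No daily rhythm passed the test for any of the 10 genes in any tissue where they were tested. Rhythm was tested as a wave with a 24 h period in each group, and as a difference of the waves between groups. In marrow 0 of the 10 genes passed in either group, where 1.62% of all genes were rhythmic under IgG, 0.406% under anti-Ly6G and 0.00700% differed in rhythm. The lowest unadjusted p values were 0.0159 for Mcpt8 under IgG, with a fitted peak at ZT 6.40, and 0.0189 for Il5ra under anti-Ly6G, with a fitted peak at ZT 16.5. Their adjusted p values were 0.193 and 0.303, and no other unadjusted p of the 20 was below 0.05. Outside the 10 genes, the eosinophil marker Ccr3 was rhythmic in marrow in both groups, with a peak at ZT 19.0 and a peak-to-trough fold of 1.72 under IgG (adjusted p = 9.49e-05) and a peak at ZT 19.4 and a fold of 1.42 under anti-Ly6G (adjusted p = 0.0361). Its difference in rhythm did not pass (unadjusted p = 0.179).

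The background of rhythmic genes was higher in gut, liver and lung, with the same outcome. In gut it was 33.6% under IgG and 24.6% under anti-Ly6G, with 0% of genes differing, and none of the 3 genes had an unadjusted p below 0.05. In liver it was 42.9%, 34.7% and 0.00800%, and Ear2 had p = 0.919 and 0.605. In lung it was 11.2%, 12.7% and 0.0511%. Lung Siglecf and Cpa3 under IgG came near the threshold (adjusted p = 0.0616 and 0.0635), with fitted peaks at ZT 18.6 and 19.0 by labels that are in doubt. Cpa3 means of 3 mice in IgG lung went from 0.908 at ZT 5 to 2.22 at ZT 21.

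In skin 0.383% of genes were rhythmic in control, 10.9% in iDTR and 0.326% in Bmal1-flox mice. Rhythm differed from control in 0.144% of genes for iDTR and 0% for Bmal1-flox. Of the 4 genes tested, Cpa3 in iDTR skin had an unadjusted p of 0.0212 (adjusted p = 0.114) with a fitted peak at ZT 13.7, and its difference in rhythm from control had an unadjusted p of 0.0457 (adjusted p = 0.314). Leaving out iDTR replicate 1 or 8 took the Cpa3 rhythm past the threshold, with adjusted p values between 0.00486 and 0.0277. This fit rests on 1 mouse per ZT, and on the 2 high libraries at ZT 13 and ZT 16 described above.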

How the data were processed

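The values are normalised counts deposited by the authors, 1 table per tissue. Per the labels' protocols, reads were trimmed with cutadapt 1.7.1 and quantified with RSEM 1.2.20 and Kallisto 0.43.1 on GRCm38 (Ensembl 84), while the submitters' processing notes name RSEM 1.7.1 and limma 3.46. The deposited normalised signal behaved as (expected count + 0.5) divided by a scaled library size. Dividing by its step recovered reads with at most 2 decimals, of which 29.7% (lung) to 44.5% (liver) were whole within 0.01 reads. They are therefore expected counts, and reads are given for depth only. Recovered depth was 7.68 M to 30.9 M reads per library, and counting limits the precision of genes below about 1 in value.

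Genes were named from the GENCODE M21 annotation. Log2(value + 1) of genes with a mean of at least 1 in the tissue was fitted with limma 3.58.1 (R 4.3.3, empirical Bayes with a mean-variance trend). Treatment effects had ZT as a factor (36 libraries), and skin effects had a 24 h cosine and sine (47 libraries). Rhythm was an F test of the cosine and sine. All tests are two-sided. Adjusted p values are Benjamini-Hochberg values over every gene tested in that tissue, with a threshold of 0.05. Each library is 1 mouse by the labels. The fits were tested on simulated data.

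All 10 genes are named. Other genes are named from lists of markers, growth factors and receptors, or as the 5 genes with the highest Pearson r. This was set for Epx, Mcpt8 and Cpa3. The neighbours of Ear2, Ear6, Siglecf and Alox15, and Prg4, Nr1d1, Svs5 and Gt(ROSA)26Sor, were chosen after values were seen. The genes and lists were chosen with earlier results of these data known. Alternatives were the pseudocount (0.1 or 5), the filter (none, or a mean of 4), quantile normalisation, array weights, other time terms, and leaving out each ZT or library. Python 3.11.15, pandas 2.3.3, numpy 2.4.6 and matplotlib 3.10.9 were used. Replicate numbers in gut did not pair the samples.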

Additional observations from a re-analysis of the deposited data

Results flagged for a closer look

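The direct comparison of the 2 Cre-carrying genotypes in skin called 2 genes, which means that the iDTR and Bmal1-flox differences from control were not alike for them. For Ear6 the iDTR difference minus the Bmal1-flox difference was −1.23 on the log2 scale (limma adjusted p = 3.68e-12). For Ear2 it was −0.38 (adjusted p = 0.00409). The iDTR mice were lower than the mouse of the control group at 16 of 16 ZT for Ear6 and at 13 of 16 ZT for Ear2. The 2 genotypes differ in the floxed or inserted allele and also in diphtheria toxin, which the Bmal1-flox mice did not receive, so the allele and the toxin cannot be told apart in this comparison.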

How the results depend on the processing

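Not counting the fits that leave out 1 library, over 275 alternative counts of called or rhythmic genes, 261 stayed within 1.5 times the main count, and over 1271 alternative values of single genes 1230 stayed on the same side of the threshold with the same direction, while 28 fell below it and 13 rose past it. No called value changed sign. Most of the main counts were 0, and most of the single values were not called in the main fit. Such counts and values could not fall, so the tally says little about how firm the calls are. In bone marrow the count of 7 was 4 without ZT 13, 3 without ZT 21 and 1 with ZT 1, 5 and 9 alone, and 5 to 10 when 1 library was left out. The share of all genes called in each of these fits is not given here, so these counts and those that follow lack a background. In liver the count of 1 was 0 without ZT 5, 0 without ZT 13 and 0 at a mean of at least 4, which leaves no gene tested. In lung the count of rhythmic genes under IgG was 2 with array weights, 1 with each group fitted alone, 1 without ZT 5, and 0 to 1 without 1 library. Under anti-Ly6G it was 1 (Il5ra) without ZT 9. In skin, at a mean of at least 4 only Cpa3 was tested and the counts were 0 for iDTR, 0 for Bmal1-flox and 0 for iDTR against Bmal1-flox. Quantile normalisation gave 0 for Bmal1-flox. Leaving out 1 library gave 2 to 4 genes for iDTR, 0 to 1 for Bmal1-flox, 2 to 3 for iDTR against Bmal1-flox, and 0 to 1 for rhythm in iDTR. Apart from the smaller sets of genes or mice, the cause was not tested.

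Single libraries that changed a call when left out, by replicate number and not in the tally above, were as follows. For Prg2 in marrow they were IgG 1, 2, 10 and 18 and anti-Ly6G 2, 9, 11, 16 and 18. For Il5ra they were IgG 1, 10, 11, 14, 16 and 18 and anti-Ly6G 2, 4, 9, 11 and 18. Epx passed without IgG 5, 7 or 15 or anti-Ly6G 5, 6, 7, 8, 12, 13 or 17 (adjusted p of 0.00931 to 0.0494). Ear1 passed without IgG 3, 5, 7 or 15 or anti-Ly6G 1, 5, 6, 7, 8, 12, 14 or 17 (0.0145 to 0.0489), and Ear2 without number 5 of either group (0.0235 to 0.0433). In skin the Il5ra call for iDTR was lost without control 1, 4, 5, 10, 15 or 16 or iDTR 1, 3, 8, 10, 12, 14 or 15 (0.0512 to 0.0743). That for Bmal1-flox was lost without control 1, 4, 5, 9, 10, 13, 15 or 16 or Bmal1-flox 2, 3, 4, 6, 7, 10, 11, 12, 14 or 16 (0.0505 to 0.0758). Without iDTR 9, Cpa3 passed against control (0.0417) and against Bmal1-flox (0.0449). In lung under IgG, Siglecf became rhythmic without IgG 4 or anti-Ly6G 5 or 14 (0.00728 to 0.0464), and Cpa3 without IgG 9 or anti-Ly6G 1 or 8 (0.0235 to 0.0463).

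With the replicate number as a block, 0 genes were called in gut, and in skin 3 for iDTR, 1 for Bmal1-flox and 2 for iDTR against Bmal1-flox, the same counts as without it. The skin number is the ZT. In gut the 18 same-numbered pairs had correlations of −0.22 to 0.18, 6 of them over 0.1, so the samples share only a number. The block with ZT 16 of Bmal1-flox missing changed no other call. In the other tissues no paired analysis was possible because the groups do not share replicate numbers in their titles. The alternatives that use only part of the ZT, the summed Ear1 and Ear2 values, gut without 2 libraries and iDTR against Bmal1-flox were chosen after seeing the data. Low reads limit, among others, Ear6 in iDTR skin (median 1.5 reads), Alox15 in control skin (5.5) and the liver values.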
